A study of Homo sapiens with 4 samples.

Results

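The genes described here make, modify, store and burn fatty acids and join them to glycerol. They were 48 genes listed by name: the transcription factors and cofactors that steer fatty acid metabolism, and the enzymes and coat proteins of fatty acid synthesis, desaturation and elongation, activation, glycerolipid assembly, lipid droplets, mitochondrial oxidation and phosphatidylcholine synthesis. A probe set was taken for a gene only if the platform annotation named that gene alone. By this rule 44 of the 48 genes had 105 probe sets, among 19775 genes with 41097 such probe sets in all. FADS1, ELOVL1, ACSL3 and AGPAT3 had no probe set that named them alone and were not analysed here. The Panc1 line, derived from a human pancreatic carcinoma, was profiled on 4 Affymetrix arrays, each condition on 1 array. The conditions were romidepsin, an inhibitor of histone deacetylases, tamoxifen, a selective estrogen receptor modulator, the combination of both drugs, and no treatment. Drugs were given for 24 hours, and all cells were grown in the same serum-containing medium. For neither drug is a dose given in the sources used here. The comparisons ask how each drug alone, and either drug on top of the other, shifts expression.

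Fatty acids are built in the cytosol from acetyl-CoA, which citrate or acetate supplies, through malonyl-CoA to palmitate, and are then lengthened and desaturated in the endoplasmic reticulum. Once activated to acyl-CoA, they are joined stepwise to glycerol 3-phosphate to give phosphatidic acid, diacylglycerol and triacylglycerol, are stored in lipid droplets behind a coat of perilipins, or enter mitochondria through the carnitine shuttle to be oxidised. The membrane-bound factor SREBP-1, encoded by SREBF1, drives many of the synthesis genes, and the nuclear receptors of the PPAR family, which bind fatty acids, drive genes of storage and oxidation.

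A signal is the probe-set intensity that the Affymetrix MAS5 method gives, on a linear scale, and each gene was read from its brightest probe set. Signals under 66.4, the median of all non-control signals on the 4 arrays, were set to that floor before folds were taken. The words rose and fell are used for differences of at least 2-fold between 2 arrays. With 1 array per condition there is no error between cultures, no test was made and no p-value is given, so every fold describes these arrays only. Of the 44 genes, 41 were above the floor on all 4 arrays. ELOVL4 lay below it on all 4, LPIN3 lay above it with tamoxifen only, and ACSL5 lay below it in untreated cells only. The mean signal, without the outer 2% of values at each end, was 500.1 on all 4 arrays, and 12159 to 13150 genes lay above the floor on an array. The 3′ to 5′ ratio of the actin control, which rises as RNA degrades, was 1.18 with romidepsin, 1.39 with tamoxifen and 1.73 with the combination, against 1.21 without treatment. Of 6 markers of pancreatic duct epithelium, KRT7, KRT8, KRT18 and CDH1 were above the floor on all 4 arrays and KRT19 was below it on all 4. The summed signal of the duct markers was 32349 with romidepsin, 23533 with tamoxifen and 17054 with the combination, against 35589.5 untreated. With the combination 2 of 5 measured duct markers rose and 3 fell, where 19.8% and 14.4% of all measured genes did so. The summed signal of 6 mesenchymal markers was 42024, 43484 and 30315 with romidepsin, tamoxifen and the combination, against 49358 untreated. The adipocyte-defining genes ADIPOQ and LEP were below the floor on all 4 arrays, as were all 4 leukocyte markers that had a probe set. The summed signal of the 6 adipocyte markers, 4 of them also genes of lipid storage or uptake, was 1622 with romidepsin, 424 with tamoxifen and 1966 with the combination, against 259.9 without treatment. Without FABP4, a fatty acid binding protein, the other 5 summed to 412, 394 and 347 with these treatments, against 257 untreated. The part of these markers in the values below was not tested.

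Romidepsin moved the lipid genes in both directions. With romidepsin 11 of 42 measured genes rose and 6 fell, or 26.2% and 14.3%, where 14.3% and 9.27% of all 13619 measured genes did so. The risers were the regulators PPARA and PPARD, the synthesis enzymes ACSS2 and FASN, the elongase ELOVL7, the acyl-CoA synthetase ACSL1, the glycerolipid enzymes GPAM and LPIN1, the lipase PNPLA2, the carnitine shuttle enzyme CPT2 and the choline kinase CHKA. The genes that fell were MID1IP1, PPARG, FADS2, ELOVL2, PLIN2 and PLIN3. The median log2 fold of the 42 genes was 0.40, against 0.06 for all genes. After centring of each array on its median the counts were 7 and 7, and ACSS2, GPAM, PNPLA2 and CHKA no longer reached 2-fold. Under every other scaling, floor and probe-set rule that measured them, PPARG, ELOVL2, ELOVL7, ACSL1, LPIN1 and CPT2 stayed past 2-fold, which is 6 of the 17, and all 17 kept their sign.

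Tamoxifen alone raised 3 of 43 measured genes, ACSS2, ELOVL6 and ELOVL7, and lowered 1, PLIN3. These are 6.98% and 2.33%, where 3.7% and 1.07% of all 13051 measured genes rose and fell. The median log2 fold was 0.14 for the lipid genes and 0.01 for all genes. ACSS2, ELOVL6 and ELOVL7 stayed past 2-fold under each of these rules, while PLIN3, at 2.04-fold lower, did not with quantile normalization or when arrays were scaled to their spike-in controls. The next gene outside the 2-fold line was ACADVL, at 1.96-fold lower. On the median over probe sets 4 genes rose with tamoxifen and 1 fell.

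With the combination 8 of 42 measured genes rose and 8 fell against untreated cells, 19% each way, where 19.8% and 14.4% of all 13802 measured genes did so. The median log2 fold was 0.29, against 0.09 for all genes. ELOVL7, GPAM, ACSL1, PPARA, LPIN1, ACSL5, FASN and PPARD rose, and PLIN3, PLIN2, PPARG, ACADVL, FADS2, PNPLA3, ELOVL2 and MID1IP1 fell. The split of rises and falls turned with the scaling. It was 7 and 10 after median centring, and 15 and 6 after scaling to spike-in controls. Set against romidepsin alone, the combination raised 1 of 42 measured genes, GPAM, and lowered 2, PLIN3 and ACADVL, or 2.38% and 4.76%, where 4.07% and 2.27% of 13726 genes did so. Set against tamoxifen alone, it raised 11 of 43 and lowered 8, or 25.6% and 18.6%, where 14.8% and 11.8% of 13893 genes did so. The actin 3′ to 5′ ratio was highest on the combination array, and its part in these counts was not tested.

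**Figure D1:**
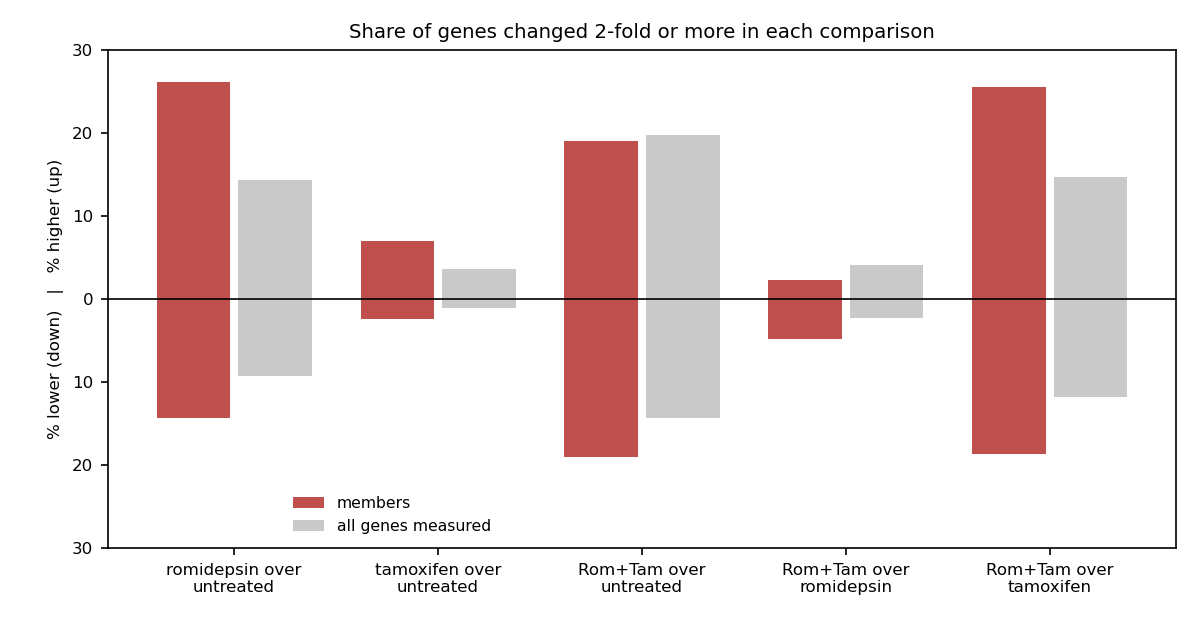
Percentage of measured genes at least 2-fold higher (bars up) and at least 2-fold lower (bars down) in each comparison, for the fatty acid and glycerolipid genes and for all measured genes, with 1 array per condition. Romidepsin over untreated reaches 26.2% up for the lipid genes and 14.3% up for all genes, and the combination over romidepsin has the shortest bars for the lipid genes going up, 2.38%.

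Upstream windows are shown for 7 genes: the 4 that rose or fell with tamoxifen, the drug that changed fewer of these genes, and the 3 that hold a match to the type of sterol regulatory element that SREBP proteins bind. Each is the 250 bases before the start of transcription, from RefSeq on GRCh38.p14, printed 5′ to 3′ on the strand of the gene with capitals for matches on either strand to 4 motifs. These are TCACNCCAC, the sterol regulatory element type; CCAAT, bound by NF-Y; the E-box CACGTG; and the GC box GGGCGG. The window of MID1IP1 lies at chrX:38801209-38801458, plus strand. That of ACSS2, the first of its 2 start sites, lies at chr20:34874739-34874988, plus strand, and that of ELOVL6 at chr4:110198616-110198865, minus strand. ELOVL7 lies at chr5:60844270-60844519, minus strand. ACSL1, the fifth of its 5 start sites, lies at chr4:184805554-184805803, minus strand. PLIN3 lies at chr19:4867668-4867917, minus strand and PNPLA2 at chr11:818664-818913, plus strand.
MID1IP1: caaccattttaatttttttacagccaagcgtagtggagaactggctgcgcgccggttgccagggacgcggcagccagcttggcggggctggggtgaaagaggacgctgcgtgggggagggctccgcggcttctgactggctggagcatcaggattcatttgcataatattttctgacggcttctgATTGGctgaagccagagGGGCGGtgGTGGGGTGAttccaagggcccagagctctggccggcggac
ACSS2: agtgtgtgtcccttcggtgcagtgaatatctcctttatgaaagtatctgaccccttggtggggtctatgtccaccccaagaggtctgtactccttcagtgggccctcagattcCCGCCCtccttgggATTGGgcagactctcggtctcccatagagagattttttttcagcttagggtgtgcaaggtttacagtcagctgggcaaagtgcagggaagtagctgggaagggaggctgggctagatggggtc
ELOVL6: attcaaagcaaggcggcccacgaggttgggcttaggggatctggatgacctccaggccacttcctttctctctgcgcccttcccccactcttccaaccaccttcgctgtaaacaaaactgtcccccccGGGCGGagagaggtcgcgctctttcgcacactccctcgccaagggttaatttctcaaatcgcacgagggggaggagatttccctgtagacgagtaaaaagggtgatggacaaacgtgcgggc
ELOVL7: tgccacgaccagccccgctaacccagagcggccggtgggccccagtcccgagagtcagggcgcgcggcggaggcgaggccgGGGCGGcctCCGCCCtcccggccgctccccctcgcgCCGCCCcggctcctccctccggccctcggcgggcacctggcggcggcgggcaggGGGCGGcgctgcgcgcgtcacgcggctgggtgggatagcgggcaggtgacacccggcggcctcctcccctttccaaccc
ACSL1: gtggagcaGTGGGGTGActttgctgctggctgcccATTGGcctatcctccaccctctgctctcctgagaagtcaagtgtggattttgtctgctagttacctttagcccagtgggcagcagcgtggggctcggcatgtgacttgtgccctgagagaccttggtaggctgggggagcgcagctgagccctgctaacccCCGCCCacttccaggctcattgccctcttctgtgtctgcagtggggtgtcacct
PLIN3: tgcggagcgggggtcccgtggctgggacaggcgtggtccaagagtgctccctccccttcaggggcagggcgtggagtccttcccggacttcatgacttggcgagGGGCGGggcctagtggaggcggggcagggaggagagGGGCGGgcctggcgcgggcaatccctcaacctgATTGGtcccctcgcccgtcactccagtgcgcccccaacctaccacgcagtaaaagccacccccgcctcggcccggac
PNPLA2: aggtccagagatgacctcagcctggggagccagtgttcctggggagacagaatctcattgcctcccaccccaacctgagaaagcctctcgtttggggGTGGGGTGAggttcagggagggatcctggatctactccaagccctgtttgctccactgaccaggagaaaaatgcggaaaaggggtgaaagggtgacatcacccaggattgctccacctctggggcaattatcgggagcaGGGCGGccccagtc
TCACNCCAC was found in 3 of the 62 windows of 37 of the genes, those of MID1IP1, PNPLA2 and ACSL1, and in 0.883% of 35116 windows of all genes. In all 3 it reads GTGGGGTGA, on the opposite strand, and begins 40, 153 and 242 bases upstream of the start. The 3 genes did not move together: with romidepsin ACSL1 and PNPLA2 rose and MID1IP1 fell. GGGCGG was found in 40 of the 62 windows, or 64.5%, against 42.6% of all windows. CCAAT was found in 21, or 33.9%, against 32.0%, and CACGTG in 4, or 6.45%, against 6.34%. Each of the 7 printed windows holds the GC box, with 4 matches upstream of ELOVL7 and 2 upstream of PLIN3. A match is a run of letters and not a site, and where there is none only these letters are not in the window.

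Among the regulators, romidepsin lowered PPARG and raised PPARA and PPARD, and the same was seen with the combination. PPARG, the receptor that drives adipocyte differentiation and lipid storage, had signals of 599.8 with romidepsin, 1963 with tamoxifen, 421 with the combination and 1609 in untreated cells. Both arrays with romidepsin were low and both without it were high. PPARG fell 2.68-fold with romidepsin and 3.82-fold with the combination, and it was 1.22-fold higher with tamoxifen. PPARA, the receptor that drives fatty acid oxidation in liver, had signals of 804 after romidepsin, 303 after tamoxifen and 932 after both, against 261 without treatment, which is 3.08-fold higher with romidepsin and 3.56-fold with both drugs. With tamoxifen its chosen probe set was 1.16-fold higher. Over 5 PPARA probe sets the tamoxifen log2 folds ran from 0.20 to 1.31, so that some passed 2-fold and others did not. PPARD, a widely expressed member of the same family, had 2188 with romidepsin, 823 with tamoxifen, 2128 with the combination and 925 in untreated cells. It was 2.36-fold higher with romidepsin and 2.30-fold higher with the combination, and both changes were under 2-fold on the median of its probe sets, as was that of PPARA with the combination. PPARA with romidepsin was at 0.98 in log2, short of 2-fold, with the floor at the 75th percentile, and PPARD with the combination was short of it after median centring too. In all 3 receptors the 2 arrays with romidepsin lay on one side of the 2 arrays without it.

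SREBF1 had signals of 3625 with romidepsin, 1136 with tamoxifen, 2628 with the combination and 1928 in untreated cells. Its level was 1.88-fold higher with romidepsin and 1.70-fold lower with tamoxifen, both under 2-fold, and 2.31-fold higher with the combination than with tamoxifen alone. A second, dimmer SREBF1 probe set passed 2-fold with romidepsin, at 1.33 in log2, and was at -0.14 with tamoxifen. MID1IP1 encodes a protein that helps acetyl-CoA carboxylase to polymerise into its active form. Its signals were 238 after romidepsin, 603 after tamoxifen and 255 after both, against 523 without treatment, so it fell 2.20-fold with romidepsin and 2.05-fold with the combination. With the floor at the 75th percentile of signals neither fall of MID1IP1 reached 2-fold. Over the 5 regulators 2 rose and 2 fell with romidepsin, 0 rose and 0 fell with tamoxifen, and 2 rose and 2 fell with the combination. These counts rest on the chosen probe set of each gene. Of all measured genes 14.3% rose and 9.27% fell with romidepsin, 3.7% and 1.07% with tamoxifen, and 19.8% and 14.4% with the combination.

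**Figure D2:**
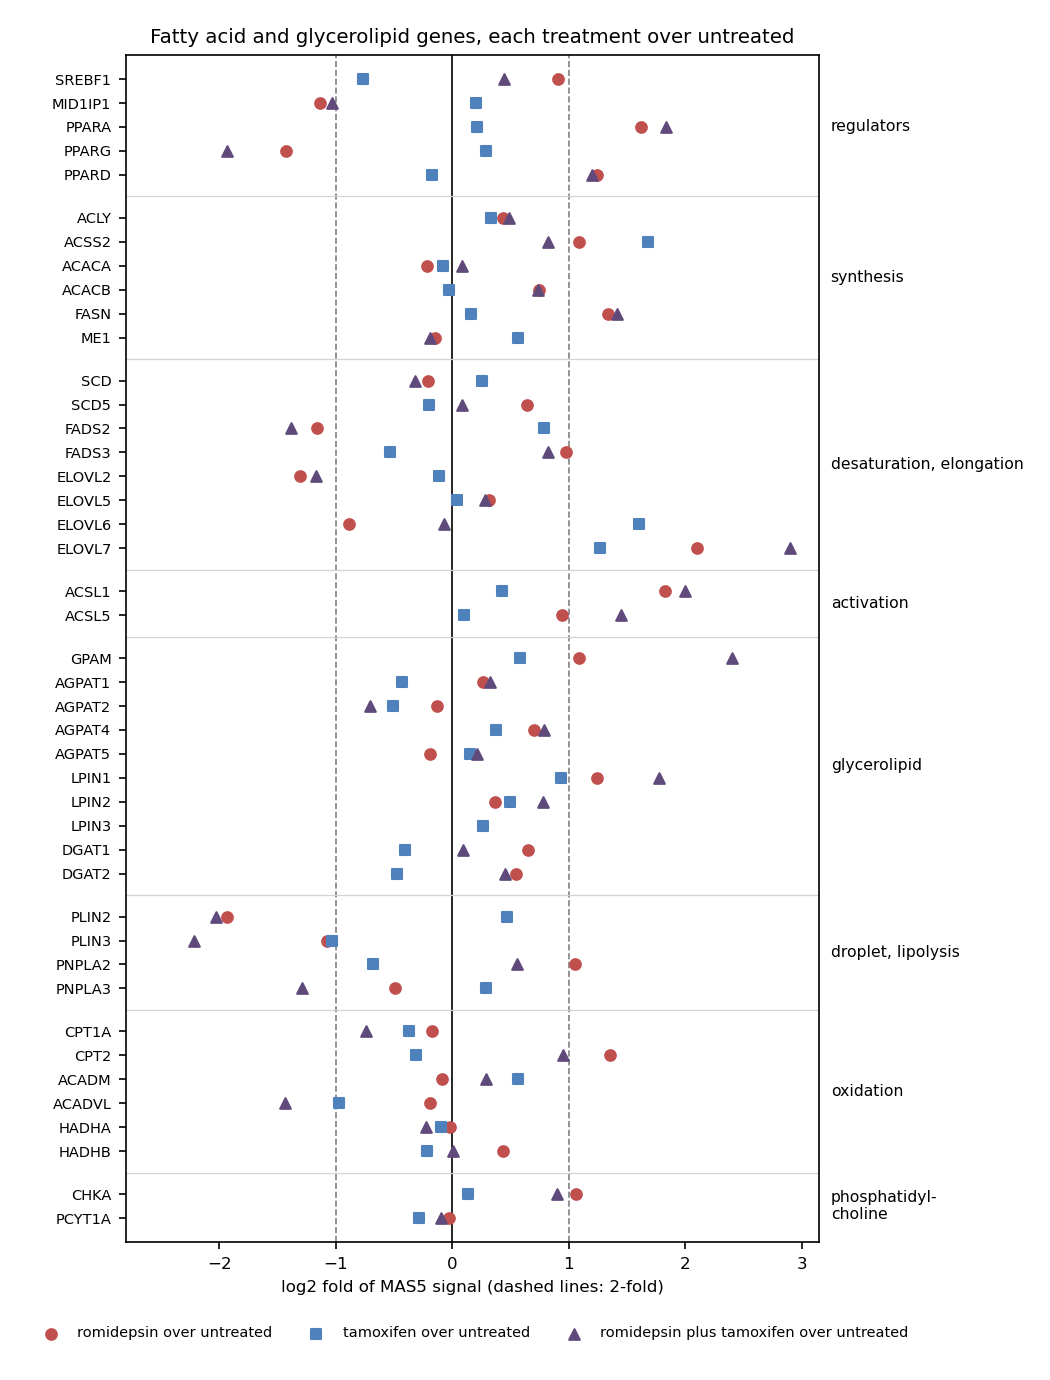
Log2 fold of the MAS5 signal over untreated cells for each measured fatty acid and glycerolipid gene (rows, grouped by role), with circles for romidepsin, squares for tamoxifen and triangles for the combination; dashed lines mark 2-fold and each point is 1 array against 1 array. Circles and triangles lie close together for most genes, as for FASN at 1.34 and 1.42, while ELOVL6 and ACSS2 reach 1.61 and 1.68 with tamoxifen.

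The genes of fatty acid synthesis did not move as a group. FASN, the multi-domain enzyme that makes palmitate, had signals of 12911 with romidepsin, 5716 with tamoxifen, 13685 with the combination and 5118 in untreated cells. It rose 2.52-fold with romidepsin and 2.67-fold with the combination, against 1.12-fold higher with tamoxifen. Both arrays with romidepsin were more than 2-fold above both without it. A second FASN probe set lay below the floor on the romidepsin and tamoxifen arrays, so with the median over probe sets the romidepsin fold was under 2. ACSS2, which makes acetyl-CoA from acetate, had 1167 with romidepsin, 1757 with tamoxifen, 968 with the combination and 548 in untreated cells. It was high on all 3 treated arrays, rising 3.20-fold with tamoxifen and 2.13-fold with romidepsin, while the combination, at 1.77-fold, lay below either drug alone.

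ACLY, which makes acetyl-CoA from citrate, was 1.35-fold higher with romidepsin, 1.26-fold higher with tamoxifen and 1.40-fold higher with the combination. The cytosolic acetyl-CoA carboxylase ACACA, which makes the malonyl-CoA for synthesis, had 1807 after romidepsin, 1991 after tamoxifen and 2229.7 after both, against 2099 without treatment. In this probe set the spread was less than 1.5-fold over the 4 arrays. A second, dimmer ACACA probe set ran from 241 with tamoxifen to 448 with romidepsin. ACACB, the carboxylase of the mitochondrial surface whose malonyl-CoA restrains the carnitine shuttle, was 1.68-fold higher with romidepsin and 1.66-fold higher with the combination, and its 4 measured probe sets ran from -0.69 to 1.25 in log2 fold with romidepsin. ME1, a source of NADPH for synthesis, had 1365 with romidepsin, 2224 with tamoxifen, 1321 with the combination and 1507 in untreated cells and was highest with tamoxifen. Of these 6 genes 2 rose with romidepsin, 1 with tamoxifen and 1 with the combination, and 0 fell in any of these comparisons. Among all measured genes 14.3% rose with romidepsin, 3.7% with tamoxifen and 19.8% with the combination, and 9.27%, 1.07% and 14.4% fell.

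Of the desaturases and elongases, tamoxifen raised ELOVL6 and ELOVL7, while romidepsin raised ELOVL7 and lowered FADS2 and ELOVL2. ELOVL6, which lengthens saturated and monounsaturated chains of palmitate length, had signals of 700.2 with romidepsin, 3937 with tamoxifen, 1229 with the combination and 1291 in untreated cells. The tamoxifen array stood above the other 3. ELOVL6 was 3.05-fold higher with tamoxifen and 1.84-fold lower with romidepsin, and with the combination it lay within 1.5-fold of untreated cells, at 1.05-fold lower. ELOVL7, an elongase of long saturated chains, had 1600.4 with romidepsin, 897 with tamoxifen, 2779 with the combination and 372 in untreated cells. All 3 treated arrays were above the untreated one, by 4.30-fold with romidepsin, 2.41-fold with tamoxifen and 7.47-fold with the combination, the largest rise among the lipid genes in that comparison.

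FADS2, the delta-6 desaturase that begins the conversion of essential fatty acids, had 415 with romidepsin, 1606 with tamoxifen, 355 with the combination and 927 in untreated cells. The arrays with romidepsin were low and the tamoxifen array was high. FADS2 fell 2.24-fold with romidepsin and 2.61-fold with the combination, and it was 1.73-fold higher with tamoxifen. On the median of its probe sets its falls were under 2-fold, with log2 folds of -0.58 and -0.69. ELOVL2, which lengthens the longer polyunsaturated chains, also fell, with 796 after romidepsin, 1819 after tamoxifen and 875 after both, against 1965 without treatment. Its falls were 2.47-fold with romidepsin and 2.25-fold with the combination, the second under 2-fold with spike-in scaling, at -0.88 in log2.

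FADS3, a relative of FADS2, went the other way from it, at 1.97-fold higher with romidepsin and 1.44-fold lower with tamoxifen, both under 2-fold. A second FADS3 probe set passed 2-fold with romidepsin, at 1.20 in log2, and was at -0.16 with tamoxifen. FADS3 was 2.56-fold higher with the combination than with tamoxifen, but short of 2-fold on the median of its probe sets and without probe sets that match several transcripts, with log2 folds down to 0.50. SCD, the main delta-9 desaturase, which makes oleate, had 22568 with romidepsin, 31068 with tamoxifen, 20938 with the combination and 26061 in untreated cells. Its changes were small, 1.15-fold lower with romidepsin, 1.19-fold higher with tamoxifen and 1.24-fold lower with the combination. Over the 4 SCD probe sets the log2 folds ran from -0.21 to 0.06 with romidepsin and from -0.32 to 0.23 with the combination, so these signs differed between probe sets. With tamoxifen they ran from 0.25 to 0.61. SCD5, a second delta-9 desaturase, was 1.56-fold higher with romidepsin, and ELOVL5, an elongase of polyunsaturated chains, was 1.25-fold higher. ELOVL4, which makes very long chains in retina and skin, had no fold because it lay below the floor throughout. Of 8 measured desaturases and elongases 1 rose and 2 fell with romidepsin. With tamoxifen 2 rose and 0 fell, and with the combination 1 rose and 2 fell. Shares over all measured genes were 14.3% up and 9.27% down with romidepsin, 3.7% and 1.07% with tamoxifen, and 19.8% and 14.4% with the combination.

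**Figure D3:**
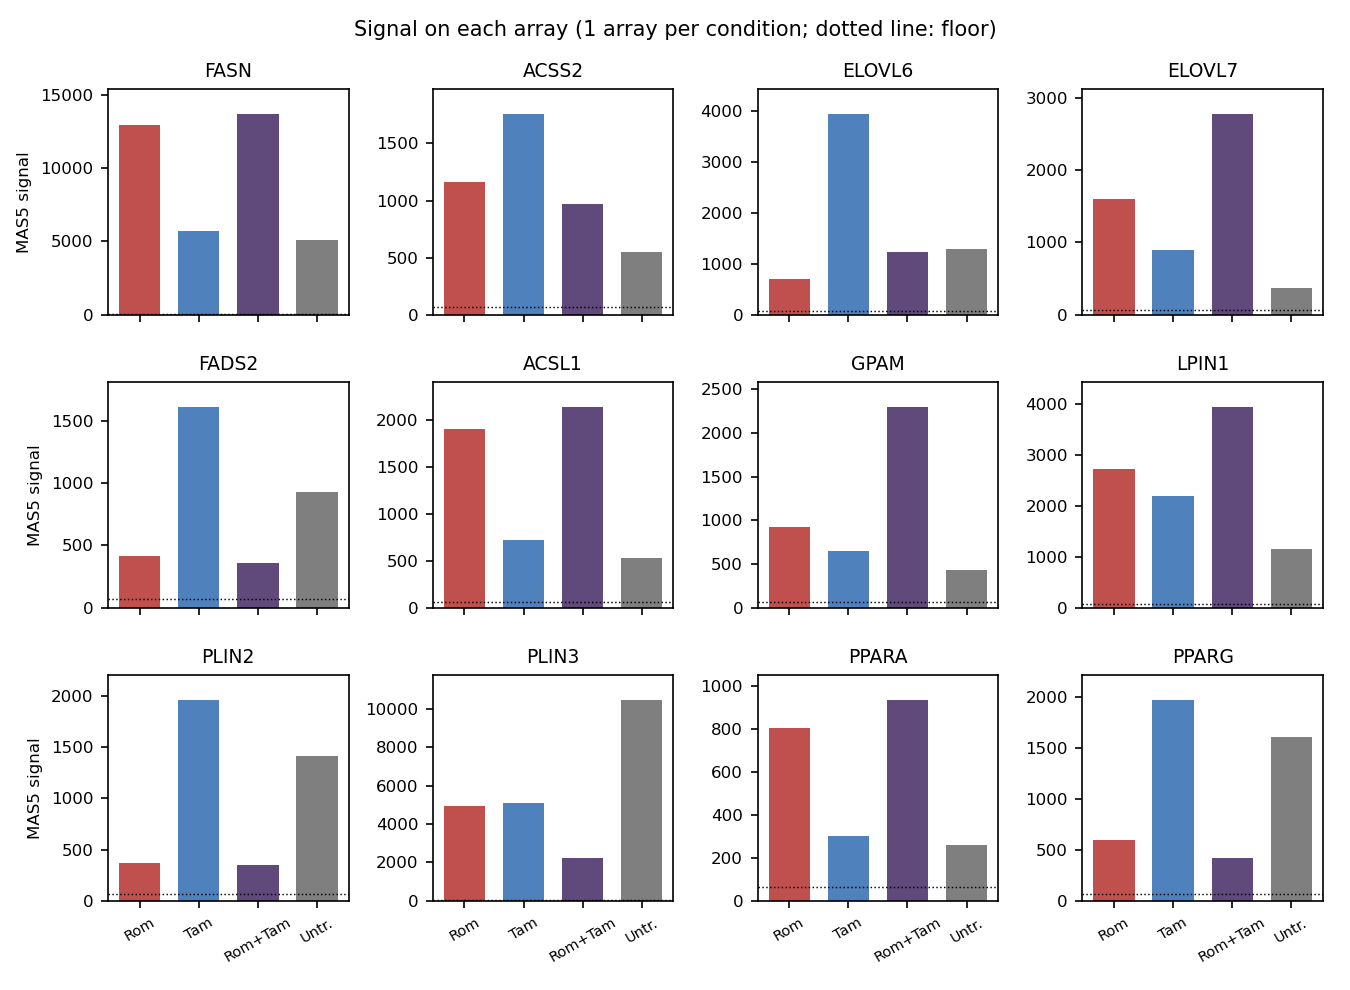
MAS5 signal on each of the 4 arrays (bars: romidepsin, tamoxifen, combination, untreated; 1 array each, no error bars) for 12 of the genes, with the floor of 66.4 as a dotted line and a separate linear axis for each gene. FASN, ACSL1 and PPARA are high and PLIN2, PPARG and FADS2 low on both arrays with romidepsin, ELOVL6 stands out with tamoxifen, and PLIN3 is highest in untreated cells.

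Both measured acyl-CoA synthetases were higher with romidepsin and with the combination. ACSL1, which activates long-chain fatty acids mainly for storage or oxidation, had 1903 with romidepsin, 721 with tamoxifen, 2133 with the combination and 535 in untreated cells. It rose 3.56-fold with romidepsin and 3.99-fold with the combination, and was 1.35-fold higher with tamoxifen. ACSL5, a synthetase of mitochondria and the endoplasmic reticulum, had 127 with romidepsin, 71.1 with tamoxifen, 181 with the combination and 56.5 in untreated cells. Since the untreated signal lay below the floor, ACSL5 was at least 1.92-fold higher with romidepsin, at least 1.07-fold higher with tamoxifen and at least 2.72-fold higher with the combination.

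Of the listed glycerolipid enzymes GPAM and LPIN1 rose with romidepsin and with the combination, and 0 fell; with arrays centred on their medians, and on the median over probe sets, AGPAT2 fell with the combination. GPAM, the mitochondrial acyltransferase that begins glycerolipid synthesis from glycerol 3-phosphate, had 2294 with the combination, against 928 with romidepsin, 653 with tamoxifen and 435 without treatment. The combination array stood above all others, 2.47-fold over romidepsin, 3.52-fold over tamoxifen and 5.28-fold over untreated cells. Its 2 probe sets gave log2 folds of 1.14 and 1.31 for the combination over romidepsin, and that rise over romidepsin held past 2-fold under all 7 other scalings, floors and probe-set rules. The rise of GPAM with romidepsin alone was short of 2-fold after median centring, at 0.90 in log2, and after quantile normalization. LPIN1, a phosphatidic acid phosphatase that makes diacylglycerol and also acts as a nuclear cofactor, had 2727 with romidepsin, 2199 with tamoxifen, 3938 with the combination and 1152 in untreated cells. All 3 treated arrays were above the untreated one, by 2.37-fold, 1.91-fold and 3.42-fold for romidepsin, tamoxifen and the combination, with the tamoxifen value just under 2-fold. Over its 3 probe sets the tamoxifen log2 folds ran from 0.55 to 1.004, the highest just past 2-fold.

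The related phosphatase LPIN2 was 1.29-fold higher with romidepsin, 1.41-fold higher with tamoxifen and 1.71-fold higher with the combination. LPIN3 reached 79.6 with tamoxifen and lay at 16.3 to 18.4 on the other arrays, so it was at least 1.20-fold higher with tamoxifen than without treatment. The enzymes of the second step, which add a fatty acid to lysophosphatidic acid, changed by less than 2-fold in their chosen probe sets. AGPAT1 was 1.21-fold higher with romidepsin and 1.35-fold lower with tamoxifen, AGPAT2 was 1.63-fold lower with the combination, AGPAT4 was 1.73-fold higher with it, and AGPAT5 lay between 1655 and 2185 on the 4 arrays. A second AGPAT2 probe set passed the line, with log2 folds of -1.31 for the combination over untreated cells and -1.13 over romidepsin. DGAT1 and DGAT2, the unrelated enzymes that complete triacylglycerol, were 1.57-fold higher and 1.46-fold higher with romidepsin, and 1.32-fold lower and 1.39-fold lower with tamoxifen. Of 9 measured glycerolipid enzymes 2 rose with romidepsin and 2 with the combination. Of 10 measured with tamoxifen 0 rose and 0 fell in their chosen probe sets. Over all measured genes 14.3% rose and 9.27% fell with romidepsin, 3.7% and 1.07% with tamoxifen, and 19.8% and 14.4% with the combination.

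With romidepsin both perilipins fell and the lipase PNPLA2 rose. PLIN2, the coat protein found on lipid droplets of most cell types, had 370.0 with romidepsin, 1954 with tamoxifen, 347 with the combination and 1413 in untreated cells. Both arrays with romidepsin were low, 3.82-fold below untreated for romidepsin and 4.07-fold for the combination, and tamoxifen alone was 1.38-fold higher. A second, dimmer PLIN2 probe set did not show this, with 89.3 for romidepsin, 129 for tamoxifen, 146 for the combination and 85.7 for untreated cells. PLIN3, a perilipin that moves between cytosol and droplets, had 4957 with romidepsin, 5110.3 with tamoxifen, 2244 with the combination and 10437 in untreated cells. It fell with each drug, 2.11-fold with romidepsin and 2.04-fold with tamoxifen, and 4.65-fold with the combination, which lay 2.21-fold below romidepsin and 2.28-fold below tamoxifen. With spike-in scaling its log2 fold over romidepsin was -0.84, short of 2-fold.

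PNPLA2, the lipase that starts the breakdown of triacylglycerol, had 3472 with romidepsin, 1046 with tamoxifen, 2456 with the combination and 1674 in untreated cells. It rose 2.07-fold with romidepsin, just past the line, and was 1.60-fold lower with tamoxifen and 1.47-fold higher with the combination. A second, dimmer PNPLA2 probe set had log2 folds of 1.71 with romidepsin, -0.89 with tamoxifen and 1.02 with the combination, the last just past 2-fold. PNPLA3, a droplet protein of the same family, had 131 with romidepsin, 226 with tamoxifen, 75.5 with the combination and 184 in untreated cells, and fell 2.44-fold with the combination, but by less than 2-fold on the median of its probe sets. The 3 genes that fell with the combination, PLIN2, PLIN3 and PNPLA3, fell against tamoxifen alone as well, with log2 folds of -2.49, -1.19 and -1.58.

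Among the oxidation genes CPT2 and ACADVL moved and the others stayed under 2-fold. CPT2, which releases fatty acids from carnitine inside mitochondria, had 2576 with romidepsin, 813 with tamoxifen, 1945 with the combination and 1007 in untreated cells. It rose 2.56-fold with romidepsin and was 1.93-fold higher with the combination and 1.24-fold lower with tamoxifen. ACADVL, which takes the first step of oxidation of long chains, had 2467 with the combination, against 5857 with romidepsin, 3401 with tamoxifen and 6673 without treatment. The combination was the lowest array, and ACADVL fell 2.70-fold against untreated cells and 2.37-fold against romidepsin, the second at -0.94 in log2 with spike-in scaling, short of 2-fold.

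CPT1A, the enzyme that commits fatty acids to mitochondria, was 1.13-fold lower with romidepsin, 1.29-fold lower with tamoxifen and 1.67-fold lower with the combination. ACADM, the dehydrogenase of medium chains, was highest with tamoxifen, at 4560.4 against 3089.9 in untreated cells. HADHA and HADHB encode the 2 subunits of the trifunctional protein, which completes the oxidation cycle of long chains. HADHA had 4421 after romidepsin, 4181 after tamoxifen and 3816 after both, against 4470.5 without treatment. HADHB had 9393 after romidepsin, 5979 after tamoxifen and 6999.9 after both, against 6954 without treatment. In their chosen probe sets neither gene reached 1.5-fold in any of the 5 comparisons. Another HADHA probe set passed 1.5-fold for the combination over tamoxifen, at -0.63 in log2. In RefSeq the 250-base windows upstream of these 2 genes overlap by 194 bases on opposite strands, at chr2:26244689-26244882 of GRCh38.p14. The median log2 fold of the 6 oxidation genes with tamoxifen was -0.26, but 0.09 with arrays scaled to spike-in controls, so no direction is given for the group.

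Phosphatidylcholine is made from choline that CHKA phosphorylates and that PCYT1A, the rate-setting enzyme, then activates. CHKA had 3871 with romidepsin, 2041 with tamoxifen, 3461 with the combination and 1854 in untreated cells. It rose 2.09-fold with romidepsin and was 1.87-fold higher with the combination and 1.10-fold higher with tamoxifen. A second CHKA probe set had 3333 with romidepsin, 2190 with tamoxifen, 4073 with the combination and 1424 in untreated cells. Its log2 folds were 1.23 with romidepsin, 0.62 with tamoxifen and 1.52 with the combination, so that the last passed 2-fold there. PCYT1A had 1143 after romidepsin, 957 after tamoxifen and 1086 after both, against 1163 without treatment. No change was as large as 1.5-fold in this probe set. Another PCYT1A probe set was at 0.61 in log2 with romidepsin and at -0.72 for the combination over romidepsin, both past 1.5-fold.

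The effect of each drug can also be read in the presence of the other, from arrays that the first reading did not use. The romidepsin effect was taken once without tamoxifen, from the romidepsin and untreated arrays, and once with it, from the combination and tamoxifen arrays. Of the 41 genes above the floor on all 4 arrays 37 had the same sign in both, or 90.2%, against 85.0% of 11058 genes. Of the 17 that passed 2-fold without tamoxifen, 16 had the same sign with it and 14 passed 2-fold the same way, and ACSS2 was the one that changed sign. Among all genes 2489 passed 2-fold without tamoxifen, of which 2463 had the same sign with it and 1928 passed 2-fold the same way. The tamoxifen effect had the same sign with and without romidepsin for 29 of the 41, or 70.7%, against 74.9% of all genes. Of its 4 genes past 2-fold without romidepsin, 3 had the same sign with romidepsin, and PLIN3 alone passed 2-fold there too. Among all genes 503 passed 2-fold without romidepsin, of which 462 had the same sign with it and 173 passed 2-fold the same way.

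The departure of the combination from the sum of both log2 effects was at least 2-fold for 3 of the 41 genes, all below the sum, where 2.23% of 11058 genes lay that far below it and 0.886% that far above. For ACSS2 the departure was -1.95 on the log2 scale, the tamoxifen log2 fold being -0.27 with romidepsin and 1.68 without it. For PNPLA3 it was -1.09 and for FADS2 -1.02. In these 3 genes tamoxifen was higher than untreated, and the combination was lower than romidepsin. With spike-in scaling the second direction turned for ACSS2 and FADS2, at 0.04 and 0.08 in log2, and after median centring the FADS2 departure was -0.97, short of 2-fold. GPAM lay above the sum by 0.72, short of 2-fold. Over the 41 genes 29 departures were negative and 12 positive, with a median of -0.12, against -0.04 for all genes, and for the 6 oxidation genes all 6 were negative. Of all 11058 genes 6123 were negative and 4935 positive. Every 1 of the 4 arrays enters each departure, so an error on any of them appears in it in full.

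**Figure D4:**
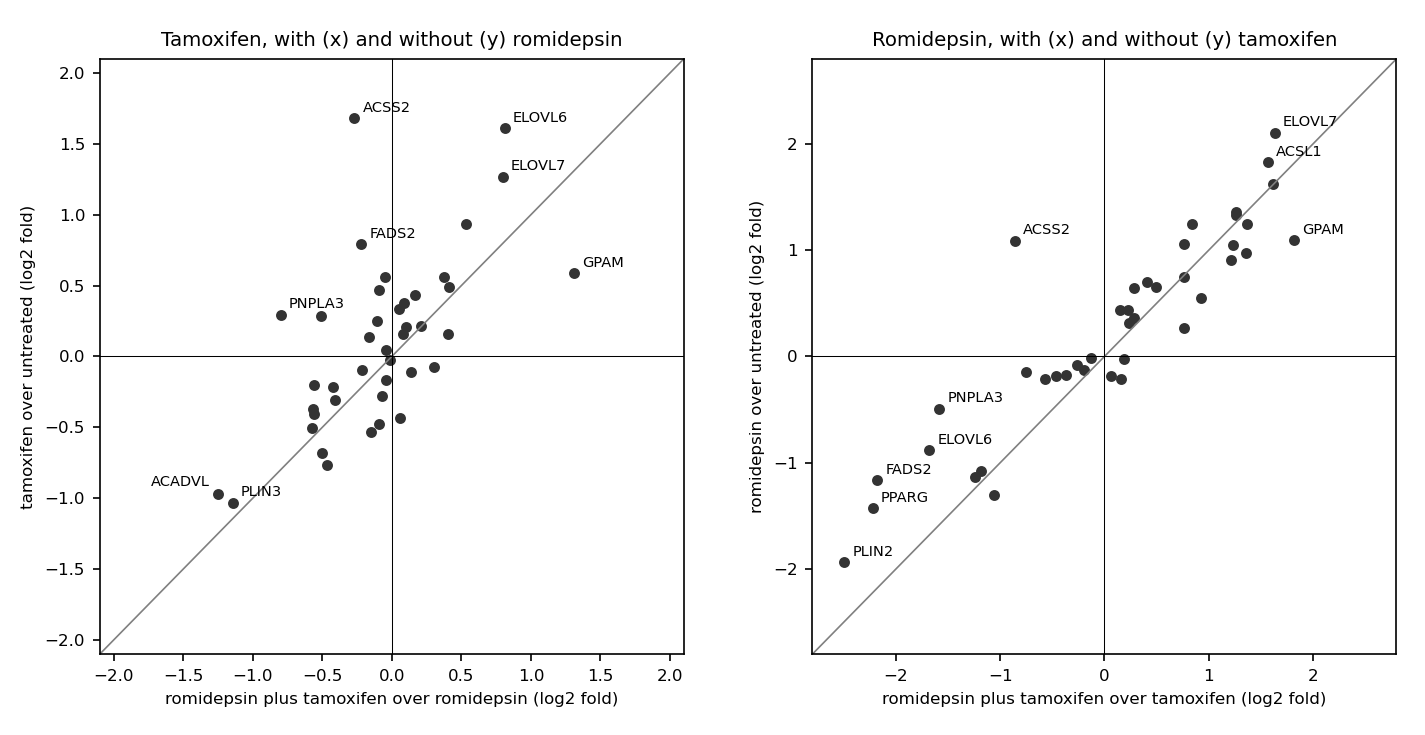
Log2 fold of each drug with the other drug present (x axis) against the same drug without it (y axis), for tamoxifen (left) and romidepsin (right); each point is 1 of the 41 genes above the floor on all 4 arrays, and the diagonal marks equal effects. ACSS2 lies far above the diagonal in both panels, at -0.27 and 1.68 for tamoxifen, and GPAM lies below it, at 1.31 and 0.59.

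Many of the genes have several probe sets, which read the same RNA at different places. Of 29 genes with more than 1 probe set above the floor on both the romidepsin and untreated arrays, 22 had probe sets that all moved the same way with romidepsin, and the median absolute difference in log2 fold between probe sets of a gene was 0.25. Of the 10 genes among them that had risen or fallen, 9 had the same sign in all such probe sets and 6 passed 2-fold in all. PLIN2 was the exception in sign. For tamoxifen the same sign was seen in 24 of 29 genes and for the combination against untreated cells in 26 of 30. ELOVL6 gave log2 folds of 0.84 to 1.61 with tamoxifen over its 3 measured probe sets, and ACSL1 gave 1.61 and 1.83 with romidepsin over its 2. This spread covers differences between probe sets and not between cultures.

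**Figure D5:**
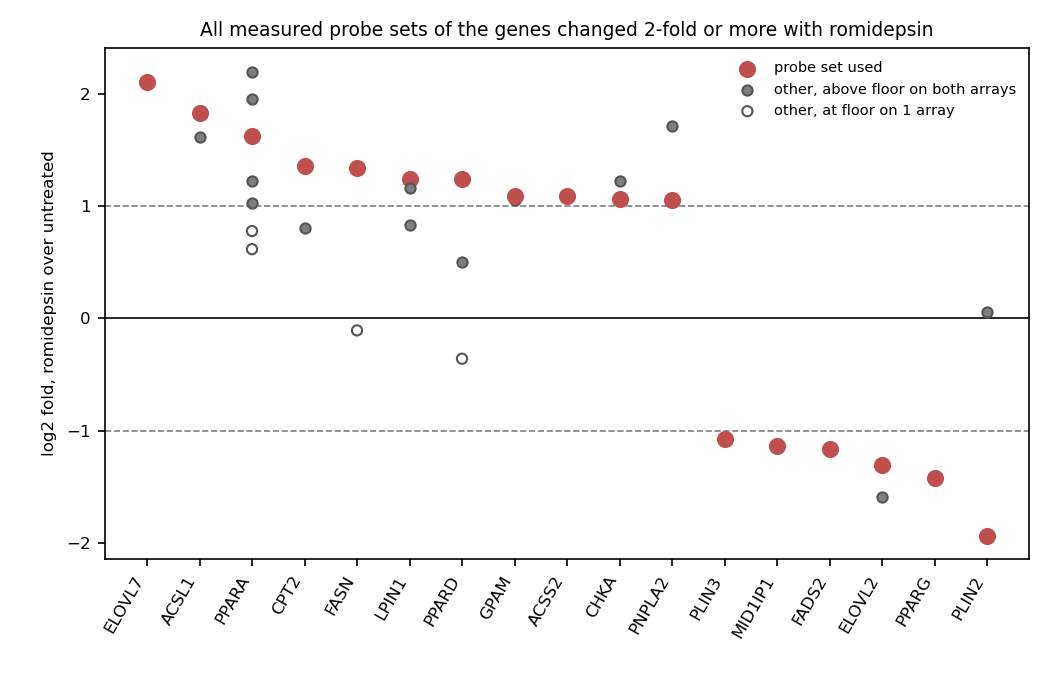
Log2 fold of romidepsin over untreated for every measured probe set of the 17 genes that rose or fell at least 2-fold (x axis, in order of fold), with large red points for the probe set used, filled grey points for others above the floor on both arrays and open points for others at the floor on 1 array. PLIN2 has the widest gap between filled points, at -1.93 and 0.06, while the ACSL1 probe sets lie at 1.61 and 1.83.

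The rest of the pathway was read from 121 further genes, of which 109 had a probe set of their own. With romidepsin 23 of 96 measured rose and 5 fell, and the median log2 fold was 0.25. With tamoxifen 3 of 90 rose and 0 fell (median 0.05), and with the combination 24 of 92 rose and 11 fell (median 0.09). Of all measured genes 14.3% rose and 9.27% fell with romidepsin, 3.7% rose and 1.07% fell with tamoxifen, and 19.8% rose and 14.4% fell with the combination. The share of the further genes that rose was 24.0% with romidepsin, 3.33% with tamoxifen and 26.1% with the combination. Of 10 measured genes of fatty acid uptake and binding 6 rose and 0 fell with romidepsin, and 6 rose and 0 fell with the combination. In each of these comparisons 7 of the 10 were above the floor on both arrays. A gene below the floor in untreated cells, such as FABP4 at 2.97, was measured only through its treated signal. It could therefore count as a rise but not as a fall. The same rule was used for the shares over all genes. SLC27A2, a fatty acid transporter and acyl-CoA synthetase of very long chains, had 851 with romidepsin, 132 with tamoxifen, 811 with the combination and 143 in untreated cells and was 5.94-fold higher with romidepsin. CDS1, which turns phosphatidic acid towards inositol and cardiolipin phospholipids, had 857 with romidepsin, 177 with tamoxifen, 1524 with the combination and 124 in untreated cells, and was 6.90-fold higher with romidepsin and 12.3-fold higher with the combination. ACADSB, which oxidises short branched chains, had 2994 with the combination, against 1023 with romidepsin, 494 with tamoxifen and 338 without treatment and stood 2.93-fold above romidepsin on the combination array.

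Several genes of the same lists fell. GPAT3, an acyltransferase of the endoplasmic reticulum that carries out the same step as GPAM, fell 3.11-fold with romidepsin, at 580.0 against 1804 in untreated cells. LPCAT1, which remodels phosphatidylcholine, fell 2.62-fold and CRLS1, the cardiolipin synthase, 2.15-fold with romidepsin. With the combination NR1H3, the oxysterol receptor LXR alpha that induces SREBF1, fell 4.69-fold, PEMT, which makes phosphatidylcholine from phosphatidylethanolamine, fell 3.93-fold, and RXRA, the partner receptor of the PPAR and LXR proteins, fell 3.22-fold. Of the other lists, with romidepsin 5 of 12 synthesis and elongation genes rose and 0 fell, and 2 of 12 regulators rose and 1 fell. Of 13 glycerolipid genes 2 rose and 2 fell, and of 14 droplet genes 1 rose and 0 fell. Of 20 oxidation genes 3 rose and 0 fell, and of 15 phospholipid genes 4 rose and 2 fell. Among all measured genes 14.3% rose and 9.27% fell with romidepsin. Only 8 of the 12 synthesis and elongation genes were above the floor on both arrays. A gene below the floor in untreated cells could be counted as a rise but not as a fall.

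The sterol-sensing genes that control SREBP processing were read beside them. INSIG1, which holds the SREBP complex in the endoplasmic reticulum and is itself an SREBP target, had 20005 with romidepsin, 8239 with tamoxifen, 24732 with the combination and 3490.2 in untreated cells. It was 5.73-fold higher with romidepsin, 2.36-fold higher with tamoxifen and 7.09-fold higher with the combination. SREBF2, the paralog of SREBF1 that favours cholesterol genes, had 717 after romidepsin, 916 after tamoxifen and 808 after both, against 753 without treatment, and SCAP, the escort of both proteins, had 2308 after romidepsin, 1195 after tamoxifen and 2001 after both, against 1940.3 without treatment; both stayed under 2-fold. ACSL4, a synthetase that prefers arachidonate, was 2.06-fold higher with romidepsin, 2.09-fold higher with tamoxifen and 2.85-fold higher with the combination.

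Cholesterol synthesis shares the SREBP proteins with fatty acid synthesis. Of 17 measured cholesterol synthesis genes 8 rose and 0 fell with tamoxifen, the median log2 fold being 0.97, where the 43 fatty acid and glycerolipid genes had 3 rises, 1 fall and a median of 0.14. With romidepsin 6 of the 17 rose and 0 fell, with a median of 0.69, and with the combination 7 rose and 0 fell, with a median of 0.61. Of all measured genes 3.7% rose with tamoxifen, 14.3% with romidepsin and 19.8% with the combination. HMGCS1, an early enzyme of that pathway, had 4277 with romidepsin, 3931 with tamoxifen, 8822 with the combination and 717 in untreated cells and was 5.97-fold higher, 5.48-fold higher and 12.3-fold higher over untreated cells with romidepsin, tamoxifen and the combination. The departure of the combination from the sum of both effects was negative for 17 of the 17, with a median of -0.83, against -0.12 for the 41 fatty acid and glycerolipid genes. Of all 11058 genes 6123 had a negative departure, with a median over all of -0.04. The difference between the 2 lists was not tested.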

How the data were processed

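Total RNA of Panc1 cells, 100 ng a sample, was labelled with a 3′ IVT kit and hybridized to 4 Affymetrix arrays of 54675 probe sets, per the labels. The authors deposited linear intensities, 1 for each probe set, made, per the submitters' processing notes, with MAS5; the version is not given in the sources used here. That method sets perfect-match against mismatch probes and brings every array to a common trimmed mean, so total signal is assumed equal between samples. Spike-in controls, which hold no RNA of the cells, were at 1.01 times the untreated level with romidepsin, 0.781 with tamoxifen and 0.819 with the combination. No scanner output was used here, and the background step, slide and scan date were not varied. Columns of other samples numbered 0.

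Probe sets with 1 annotated gene were matched by Entrez ID to RefSeq on GRCh38.p14, which gave 41043 matches and changed 0 symbols. Of several probe sets of a gene the one highest in mean log2 signal was used, after the floor of 66.4 (the 50th percentile of non-control signals) was set. Comparisons used genes above the floor on either array, and a gene at the floor on one of them has only a lower bound for its fold. Samples were grouped by their labels, and the 5 comparisons were each treatment over untreated cells and the combination over each drug. The design planned no test, since each group holds 1 array, and the number of arrays limits the precision. The SD of log2 folds over 18 spike-in probe sets was 0.09 to 0.11 and leaves out all variation between cultures.

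All listed genes could be named. Of the further pathway genes, the 3 highest and the 3 lowest per comparison were named if changed 2-fold, above the floor on both arrays and with all measured probe sets moving one way; SREBF2, SCAP, INSIG1, ACSL4 and, of cholesterol synthesis, HMGCS1 were always given. The genes, lists and thresholds were chosen with earlier results of these data known. The alternatives, 9 in number, were other scalings, floors, probe-set rules and fold thresholds. Software was Python 3.11.15, numpy 2.4.6, pandas 2.3.3 and matplotlib 3.10.9. The code that makes the gene values and 2-fold calls was also run on simulated data with planted folds, and the other steps were not. There the romidepsin array was replaced by the untreated values with added noise. That run checks the code only and cannot say whether the calls given here are right.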

Additional observations from a re-analysis of the deposited data

Results flagged for a closer look

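In 3 genes the effect of a drug had opposite signs with and without the other drug and the combination departed by at least 2-fold from the sum of both log2 effects. The difference was not tested, since each value rests on 1 array. For ACSS2 the departure was -1.95 on the log2 scale. Its tamoxifen log2 fold was -0.27 with romidepsin present and 1.68 without it, and its romidepsin log2 fold was -0.86 with tamoxifen present and 1.09 without it. For PNPLA3 the departure was -1.09, with a tamoxifen log2 fold of -0.80 with romidepsin and 0.29 without it. For FADS2 it was -1.02, with a tamoxifen log2 fold of -0.22 with romidepsin and 0.79 without it. Some of this turned with the processing. With spike-in scaling the tamoxifen log2 fold with romidepsin was 0.04 for ACSS2 and 0.08 for FADS2, so that tamoxifen no longer had opposite signs in these 2 genes, while romidepsin still had in ACSS2. The FADS2 departure was -0.97 after median centring and -0.83 on the median over probe sets, both short of 2-fold. With the floor at the 75th percentile FADS2 and PNPLA3 were not above it on all 4 arrays, and neither was FADS2 without probe sets that match several transcripts. PNPLA3 had signals of 131 with romidepsin, 226 with tamoxifen, 75.5 with the combination and 184 in untreated cells, the combination being close to the floor of 66.4.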

How the results depend on the processing

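No paired analysis was possible because each condition has 1 array and no test was made. Of the counts and medians over the fatty acid and glycerolipid genes, 102 values under alternatives stayed within 1.5 times the count reported, or, for medians, within the median difference between probe sets of a gene. Of these, 2 medians near 0 changed sign: that of the combination over untreated was -0.01 when centred, and that of the combination over romidepsin was 0.04 on the median over probe sets. The other values follow. With arrays centred on their medians 7 genes rose with romidepsin and 2 fell with tamoxifen. With quantile normalization 0 fell with tamoxifen. Scaled to spike-in controls, 5 rose and 0 fell with tamoxifen, with a median log2 fold of 0.45; 15 rose with the combination over untreated; and 3 rose and 0 fell with the combination over romidepsin, with a median of 0.25. That scaling moved the median of all genes by 0.32 with tamoxifen, 0.25 with the combination over untreated and 0.29 over romidepsin, centring by -0.10 to -0.26 over the 5 comparisons, and quantile normalization by -0.10 with the combination over untreated. On the median over probe sets 2 rose with the combination over romidepsin. Without probe sets that match several transcripts fewer genes were measured, 30 in place of 42 with romidepsin and 32 in place of 43 with tamoxifen. PPARG and PLIN3 were among those left out. Of the genes still measured 3 fell with romidepsin, 0 with tamoxifen, 5 with the combination over untreated, 1 over romidepsin and 5 over tamoxifen. At 1.5-fold 18 rose with romidepsin, 6 rose and 4 fell with tamoxifen, 15 rose with the combination over untreated and 3 over romidepsin. At 3-fold 3 rose and 1 fell with romidepsin, 0 fell with tamoxifen, 5 rose and 3 fell with the combination over untreated, 0 rose and 0 fell over romidepsin, and 3 rose and 4 fell over tamoxifen. Among all genes the share of calls that were rises with tamoxifen was 77.5% as deposited, 48.0% when centred and 98.3% with spike-in scaling. Changes of dim genes near the floor are understated, and the 3 genes that lie below it on an array limit what can be read of ELOVL4, LPIN3 and ACSL5.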

Other observations

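Among the genes of fatty acid uptake and binding, some lay outside the naming rule and were chosen after their values were seen. FABP4, the fatty acid binding protein of adipocytes and macrophages, had 1209.8 with romidepsin, 29.7 with tamoxifen, 1618 with the combination and 2.97 in untreated cells. With the untreated signal below the floor, it was at least 18.2-fold higher with romidepsin and at least 24.4-fold higher with the combination, while tamoxifen alone left it below the floor. SLC27A1, a fatty acid transporter of muscle and fat, had 1014 with romidepsin, 283 with tamoxifen, 759 with the combination and 272 in untreated cells, which is 3.73-fold higher with romidepsin, 1.04-fold higher with tamoxifen and 2.79-fold higher with the combination. SLC27A5, the bile acid and very long chain acyl-CoA synthetase of liver, had 824 after romidepsin, 384 after tamoxifen and 741 after both, against 308 without treatment. VLDLR, a lipoprotein receptor, had 369.7 after romidepsin, 214 after tamoxifen and 491 after both, against 180.3 without treatment. In these 4 genes both arrays with romidepsin lay above both without it. CD36 and SLC27A6, transporters of the same list, were below the floor on all 4 arrays.

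INSIG2, a relative of INSIG1 that also holds SREBP in the endoplasmic reticulum, likewise chosen after its values were seen, had 927 with romidepsin, 600.0 with tamoxifen, 1849.5 with the combination and 324 in untreated cells. It was 2.86-fold higher with romidepsin, 1.85-fold higher with tamoxifen and 5.71-fold higher with the combination.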
